A study of Rattus norvegicus with 5 samples.

Results

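Hippocampal transcript levels after fetal alcohol exposure were set against those of both alcohol-free diets taken as 1 group. The comparison used all 5 arrays of the series: 2 arrays titled P5 FAE, from rats described as fetal alcohol exposed, against 3 alcohol-free arrays, which were 2 titled P5 Control from a control diet and 1 titled P5 Isocaloric diet. Every array measured total RNA of rat hippocampus, and all samples carry the label P5. The labels do not give the strain, the sex, the amount and timing of the alcohol, or whether a sample was 1 animal or a pool. The p-values therefore measure only the spread between these samples, which may in part be technical. Of the 8799 probe sets on the array, the short-oligonucleotide groups that each report 1 transcript, 59 were controls. The other 8740 were members of the comparison, and 5244 were bright enough to be tested.

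Alcohol taken during pregnancy crosses the placenta and disturbs the formation, survival and wiring of neurons, and the hippocampus, a centre of learning and memory, is among the sensitive regions. An isocaloric diet supplies the calories of the alcohol from another source, so that alcohol can be set apart from altered feeding. The choroid plexus, an epithelium that lies in the ventricle beside the hippocampus and secretes cerebrospinal fluid, and the meninges on the brain surface can enter a dissected sample in varying amounts.

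Median intensity lay between 49.3 and 56.0 on the 5 arrays, and the 3' to 5' ratio of beta-actin probe sets between 1.12 and 1.34. Both fetal alcohol arrays had ratios (1.18 and 1.26) between those of the isocaloric array (1.12) and the control diet arrays (1.32 and 1.34). The Cre spike control measured 3774 and 4365 under control diet, 2269 on the isocaloric array, and 2139 and 3132 after fetal alcohol. Whether this bears on the differences was not tested. The fetal alcohol arrays were the pair of arrays farthest apart, so their own spread entered every test. Nrgn, which encodes neurogranin, a calmodulin-binding protein abundant in forebrain excitatory neurons, had an intensity of 1474 to 2161 over the arrays. In such tissue samples, fewer cells of a type and less RNA per cell cannot be told apart.

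The best-ranked genes had lower signal after fetal alcohol. They included Sod3 (extracellular antioxidant defence), Alox5ap (leukotriene synthesis), Gsta1 (conjugation of foreign compounds) and the choroid plexus genes Enpp2, Aqp1 and Ttr. No probe set passed the threshold: limma with Benjamini-Hochberg adjustment called 0 of 5244 (0%), and the smallest adjusted p was 0.059. At an unadjusted p under 0.05 there were 186 probe sets (3.55%), of which 49 (0.934%) were higher and 137 (2.61%) lower after fetal alcohol. With no difference in any probe set a share of 0.05 would be expected, so 3.55% was no excess. When the arrays were set to equal medians, 6 probe sets passed, namely those of Sod3, Alox5ap, Enpp2, Gsta1 and Ttr and 1 probe set with several gene symbols, all lower. With quantile normalization 0 passed. The other offsets and brightness filters tried, and eBayes without a trend, also gave 0 each.

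Both fetal alcohol arrays lay above all 3 alcohol-free arrays for 443 probe sets (8.45%) and below all 3 for 435 (8.3%). By this count alone the directions were even, and the median log2 difference over all tested probe sets was 0.00871. At a difference of at least 1.5-fold, 101 probe sets (1.93%) lay below the range and 36 (0.686%) above it. Which side held more differed between the fetal alcohol arrays: without array 2, 450 lay below and 125 above, whereas without array 1, 192 lay below and 247 above. At 2-fold or more, 23 (0.439%) lay below and 2 (0.0381%) above. No p is attached to these counts, since the smallest 2-sided exact permutation p for 2 against 3 arrays is 0.2. The same 0.2 is the share of probe sets expected outside the range, on either side and at any size, if all arrays were exchangeable. The observed share was 878 probe sets (16.7%), which is under 0.2, so the count of separated probe sets was no excess.

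**Figure D1:**
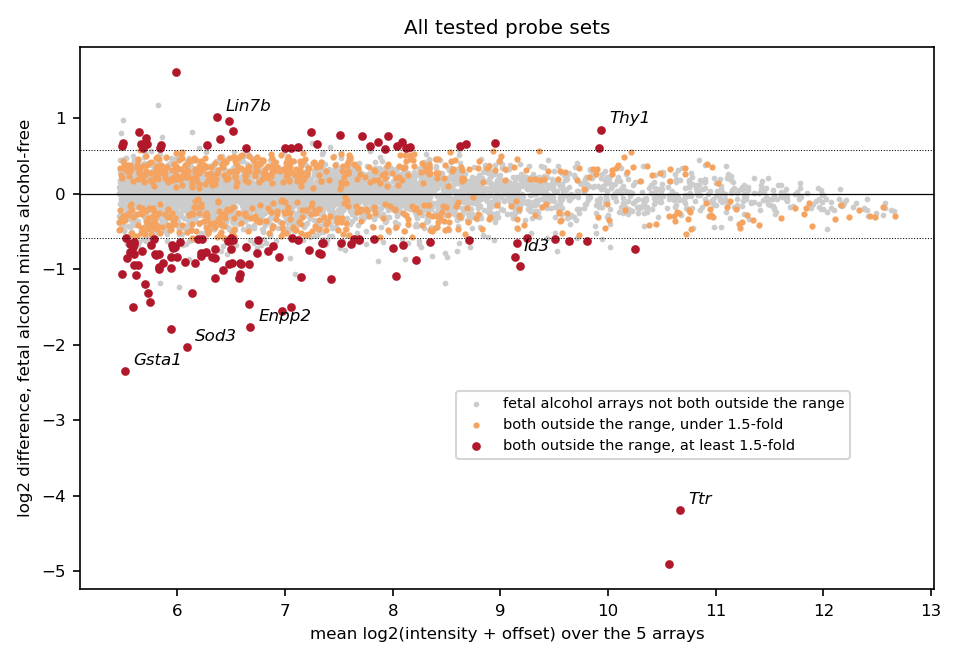
Each point is 1 of the 5244 tested probe sets, with its mean log2(intensity + offset) over the 5 arrays on the x axis and its log2 difference, fetal alcohol minus alcohol-free, on the y axis; dotted lines mark 1.5-fold. Of the dark red points, which lie outside the range by at least 1.5-fold, 101 are below 0 and 36 above, and the lowest pair are both probe sets of Ttr.

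The isocaloric array did not stand on 1 side of the control diet arrays among these genes. The range rule used the isocaloric value itself, however. A probe set whose isocaloric value reached a fetal alcohol value could not be among them, so the selection limited these positions. Of the 101 lower probe sets, the isocaloric value was above both control diet values in 34 (33.7%), between them in 30 (29.7%) and below both in 37 (36.6%). Over all tested probe sets these shares were 38.3%, 24.2% and 37.5%. Among the 36 higher probe sets they were 36.1%, 38.9% and 25%.

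Sod3, the superoxide dismutase secreted into the extracellular space, had the smallest p of all probe sets and measured 119 and 103 under control diet, 104 under isocaloric diet, and 25.5 and 13.0 after fetal alcohol. Its log2 difference, fetal alcohol minus alcohol-free throughout, was -2.03 ± 0.24 (SE, 2 against 3 arrays; adjusted p = 0.059). The 3 alcohol-free values of Sod3 lay close together and both fetal alcohol values far under them, the second near the offset of 10.605 that was added before taking logs. A second Sod3 probe set was too dim for testing, at 3.29 to 4.77 on all arrays. Of 19 antioxidant enzymes tested, 2 (10.5%) lay below the range and 1 (5.26%) above, against 8.48% and 8.7% over all genes. Below the range were Sod3 and Gclm, a subunit of the enzyme that starts glutathione synthesis (-0.17 ± 0.21). Prdx3, a mitochondrial peroxiredoxin, lay above it (0.38 ± 0.22; 0.22 in a second, overlapping probe set), and the median of the list was -0.00073.

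Gsta1, an alpha-class glutathione S-transferase that conjugates reactive compounds to glutathione, measured 43.2 and 69.4 under control diet, 144 under isocaloric diet, and 8.50 and 4.77 after fetal alcohol. After fetal alcohol its signal was thus smaller than the offset, and the log2 difference was -2.35 ± 0.39 (adjusted p = 0.164). Other Gsta1 probe sets gave -1.50 and -0.90. All 3 carry a suffix that marks probes shared by similar genes, so members of the alpha class may not be separated. When each diet was given its own mean, this Gsta1 probe set was the 1 that passed the threshold (adjusted p = 0.048). Over the 8 alternatives that tested it the adjusted p ran from 0.0272 to 0.523. In the others it fell under the brightness filter, which it passed in the main fit through its alcohol-free values. Other named genes passed in the same way, among them Sod3, Alox5ap, Cxcr1, Rph3al, Sult1a1 and Aqp1. Kctd13 and Apbb3, described below, passed through their fetal alcohol values.

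Among 13 glutathione S-transferases, 4 lay below the range (30.8%) and 0 above it, where over all genes with 1 probe set each 8.48% lay below and 8.7% above. Beside Gsta1 they were Gstk1, a mitochondrial and peroxisomal form (-0.65 ± 0.26; 0.013 in its second probe set), Mgst1, a membrane-bound form (-0.47 ± 0.20), and the mu-class Gstm1 (-0.35 ± 0.21; 0.099 and -0.069 in its others). Other members differed in sign: Gsto1 measured 0.39 ± 0.25 (0.056 in its second probe set) and Mgst3 0.29 ± 0.21, both with overlapping arrays. The list median was -0.12, which was 0.12 without fetal alcohol array 2, 0.029 without the isocaloric array, -0.039 without control diet array 2 and -0.37 without fetal alcohol array 1. Sult1a1, a sulfotransferase that conjugates phenols, measured 52.3 and 87.2 under control diet, 58.1 under isocaloric diet, and 30.7 and 23.5 after fetal alcohol (-0.998 ± 0.25, adjusted p = 0.655). Its second probe set gave -0.93.

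Leukotriene and leukocyte genes gave the second-ranked named gene. Alox5ap, the membrane protein that presents arachidonic acid to 5-lipoxygenase, measured 63.9 and 71.0 under control diet, 73.7 under isocaloric diet, and 20.7 and 17.1 after fetal alcohol. The difference was -1.44 ± 0.21 (adjusted p = 0.104), with the 3 alcohol-free values within a narrow band. A dimmer Alox5ap probe set, not tested, gave -0.53. Cxcr1, an interleukin-8 receptor, measured 54.4 and 77.5, then 27.2 on the isocaloric array, and 18.8 and 17.5 after fetal alcohol (-1.06 ± 0.33, adjusted p = 0.998). Here the isocaloric value stood nearer to the fetal alcohol arrays than to the control diet arrays. Of 15 tested microglia, macrophage and leukocyte genes, 2 lay below the range and 1 above, with a median of -0.20. Without control diet array 2 that median was -0.046, and without the brightness filter -0.048. The summed intensity of the list ran from 1138 to 1666 without alcohol and was 1113 and 1029 after fetal alcohol.

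Choroid plexus genes were the list with the largest median difference, -0.88 over 8 tested of 20 listed genes. Of the 8, 6 lay below the range (75%), 0 above it, and 7 had negative differences. Over all genes 8.48% lay below, 8.7% above and 48% were negative, with a median of 0.012. Of the 8, 4 had an unadjusted p under 0.05 and 0 an adjusted one. Ttr encodes transthyretin, which choroid epithelium secretes and which carries thyroxine and the retinol-binding protein. Ttr measured 5297 and 4886 under control diet, 5391 under isocaloric diet, and 1004 and 69.2 after fetal alcohol, a log2 difference of -4.19 ± 0.79 (adjusted p = 0.287). Both fetal alcohol values were far under the alcohol-free band and far from each other. The difference was -6.03 without fetal alcohol array 1 (adjusted p = 8.33e-06) and -2.36 without array 2 (adjusted p = 0.00998), in fits where 1 fetal alcohol array is assumed to vary like the alcohol-free group. Over all alternatives the adjusted p ran from 8.33e-06 to 0.927. A second Ttr probe set gave -4.91.

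Enpp2, the enzyme autotaxin that makes lysophosphatidic acid, measured 113 and 146 under control diet, 228 under isocaloric diet, and 33.1 and 44.3 after fetal alcohol (-1.76 ± 0.29, adjusted p = 0.164). Its brighter probe set gave -1.11 ± 0.23. Aqp1, the water channel of the apical choroid membrane, measured 79.5 and 86.5, then 107 on the isocaloric array, and 25.3 and 35.1 after fetal alcohol (-1.32 ± 0.23, adjusted p = 0.164). Sostdc1, a secreted protein that blocks BMP and Wnt signals, measured 133 and 137, then 329 on the isocaloric array, and 42.2 and 71.7 after fetal alcohol (-1.55 ± 0.38, adjusted p = 0.647). For Enpp2, Aqp1 and Sostdc1 the isocaloric array was the highest of the 5, so pooling the diets widened the difference and the spread together. Fetal alcohol array 1 was the lower of its pair for these 3 probe sets. Array 2 was the lower for Ttr and for the brighter Enpp2 probe set (85.2 on array 1 and 72.6 on array 2).

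The remaining choroid list members differed less. Igf2, also on the meninges list, lay barely below the range (-0.65 ± 0.30). It measured 582 on fetal alcohol array 1, against 592 on control diet array 1. Htr2c, a serotonin receptor abundant on choroid epithelium, measured 55.9 and 50.7 under control diet, 65.0 under isocaloric diet, and 38.5 and 41.6 after fetal alcohol (-0.42 ± 0.21). Igfbp2, a binding protein of insulin-like growth factors, overlapped between the groups (-0.31 ± 0.26), and Prlr, the prolactin receptor, gave 0.070 ± 0.21 (-0.010 in its second probe set). The summed intensity of the list ran from 7011 to 7767 without alcohol and was 2653 and 1209.8 after fetal alcohol. Without Ttr it was 1714 to 2376 and 1650 and 1141. Of the 101 lower probe sets, 8 belonged to this list, and of the 36 higher ones 0 did; the part of choroid plexus content in the other lower genes was not tested. With no brightness filter the list median was -0.53.

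**Figure D2:**
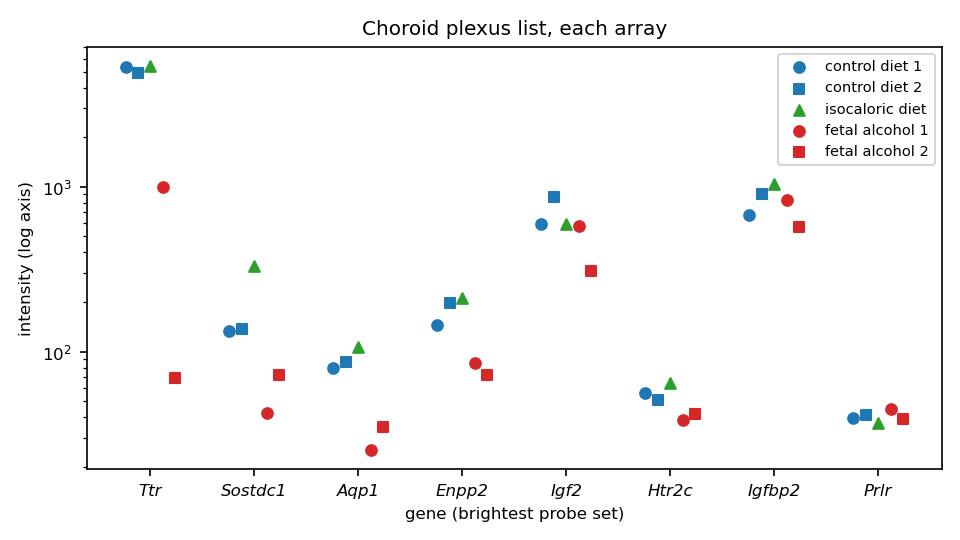
Intensity (log axis) of the brightest probe set of the 8 tested choroid plexus genes on each of the 5 arrays, ordered by log2 difference. Both fetal alcohol arrays (red) lie under the alcohol-free arrays (blue and green) for 6 genes, from Ttr at -4.19 to Htr2c at -0.42, and overlap with them for Igfbp2 and Prlr.

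Genes of the meninges and connective tissue had a median difference of -0.35, with 25 of 27 negative. Only 3 lay below the range (11.1%) and 0 above it. Over all genes 8.48% lay below, 8.7% above and 48% were negative. The 3 list members below the range were Timp1, Igf2 and Mgp. Timp1, an inhibitor of matrix metalloproteinases, measured 338 and 388 under control diet, 381 under isocaloric diet, and 216 and 177 after fetal alcohol (-0.88 ± 0.21, adjusted p = 0.647; -0.53 for its second probe set). Mgp, a calcification inhibitor of matrix, gave -0.35 ± 0.20. Col3a1, a fibrillar collagen, measured 289.6 and 408, then 199 on the isocaloric array, and 304 and 71.3 after fetal alcohol. Its difference of -0.89 ± 0.50 rested on fetal alcohol array 2 and was 0.083 without it; a second Col3a1 probe set gave -0.25, with overlap. The list median was -0.059 without that array and -0.16 without control diet array 2. Its summed intensity ran from 9272 to 13303 without alcohol and was 10989 and 7339 after fetal alcohol.

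Insulin-like growth factor genes were mixed. The brightest probe set of Igf2, a fetal growth factor also made by choroid plexus and meninges, measured 592 and 861 under control diet, 593 under isocaloric diet, and 582 and 308 after fetal alcohol (-0.65 ± 0.30). Fetal alcohol array 1 was barely outside the range. Another Igf2 probe set, singled out after its values were seen, measured 134 and 179, then 27.0 on the isocaloric array, and 23.1 and 14.7 after fetal alcohol (-1.79 ± 0.57, adjusted p = 0.998). In that probe set the isocaloric array resembled the fetal alcohol arrays, and the remaining tested Igf2 probe sets gave -0.54 and -0.078. Igf1, its postnatal relative, gave 0.072 ± 0.21, with -0.057 and 0.078 in its other tested probe sets. Over 15 genes of this pathway 1 lay above and 1 below the range, with a median of -0.0067. Without the isocaloric array 2 lay above and 4 below, with a median of -0.17. Of all 5244 probe sets, 874 then lay above and 931 below. Without fetal alcohol array 2 the list median was -0.18. Without fetal alcohol array 1 the median was 0.044.

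Signalling and transcription genes among the 15 ranked lower genes covered several roles. Dusp1, a phosphatase that switches off MAP kinases and is itself induced by activity and stress, measured 113 and 125 under control diet, 117 under isocaloric diet, and 63.3 and 41.0 after fetal alcohol (-1.06 ± 0.22, adjusted p = 0.461). Other Dusp1 probe sets gave -1.08 and -0.32. Nr1d1, the circadian repressor Rev-erb alpha, measured 118 and 84.2, then 115 on the isocaloric array, and 47.8 and 51.7 after fetal alcohol (-0.93 ± 0.22, adjusted p = 0.647). The alcohol-free arrays varied more for Nr1d1 than for Dusp1. That none came down to the fetal alcohol level was required by the ranking rule. Id3, which blocks proneural basic helix-loop-helix factors and holds progenitors undifferentiated, measured 682 and 654, then 763 on the isocaloric array, and 444 and 336 after fetal alcohol (-0.84 ± 0.22, adjusted p = 0.693; -0.36 for its second probe set).

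Slc6a9, the glycine transporter GlyT1 that sets glycine near NMDA receptors, measured 223 and 290.4 under control diet, 174 under isocaloric diet, and 125 and 74.2 after fetal alcohol (-1.13 ± 0.28, adjusted p = 0.655). Rph3al, a Rab effector in regulated exocytosis, measured 65.0 and 63.2, then 62.8 on the isocaloric array, and 31.1 and 23.7 after fetal alcohol (-0.97 ± 0.21, adjusted p = 0.484). Its second probe set gave -0.36. Ace, the angiotensin-converting enzyme, which is found on choroid plexus and vessels, measured 99.2 and 117, then 149.8 on the isocaloric array, and 54.1 and 63.0 after fetal alcohol (-0.93 ± 0.23, adjusted p = 0.652). In each of these 3 genes the higher fetal alcohol value stayed under the lowest alcohol-free value, as the ranking rule required of every lower gene. A probe set with several gene symbols, D38380_at, which is left unnamed, had the second-smallest p of all: 177 and 202, then 195, against 63.5 and 57.6 (-1.51 ± 0.20, adjusted p = 0.077).

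The higher genes had smaller differences, and several of them encode neuronal proteins. Lin7b, a scaffold protein of synaptic membranes, measured 47.7 and 64.2 under control diet, 44.8 under isocaloric diet, and 125 and 106 after fetal alcohol (1.01 ± 0.22, adjusted p = 0.518). Pex19, a chaperone for peroxisomal membrane proteins, measured 60.6 and 48.6, then 65.1 on the isocaloric array, and 102 and 149 after fetal alcohol (0.97 ± 0.24, adjusted p = 0.647). Thy1, a surface glycoprotein of mature neurons, had a difference of 0.85 ± 0.21 (adjusted p = 0.647). Its 3 alcohol-free values lay within 752 to 786 and its fetal alcohol values at 1622 and 1185, while a second, dimmer Thy1 probe set gave 0.37. Apbb3, an adaptor that binds the amyloid precursor protein, was the other probe set at least 2-fold above the range and had no place in the ranking; it is named after its values were seen. Apbb3 measured 10.4 and 106 under control diet, 16.2 under isocaloric diet, and 112 and 115 after fetal alcohol (1.62 ± 0.60, adjusted p = 0.998), so that control diet array 2 nearly reached the fetal alcohol arrays.

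Receptor and exocytosis genes followed, each with an adjusted p of 0.998. Cadps, which primes dense-core vesicles for release, measured 366 and 284 under control diet, 347 under isocaloric diet, and 527 and 529 after fetal alcohol (0.66 ± 0.21). Sstr2, a somatostatin receptor, measured 174 and 196, then 118 on the isocaloric array, and 303 and 254 after fetal alcohol (0.76 ± 0.26). Chrm3, a muscarinic acetylcholine receptor, measured 229 and 173, then 251 on the isocaloric array, and 376 and 327 after fetal alcohol (0.68 ± 0.23), but its second, dimmer probe set gave -0.068. Nefl, the neurofilament light chain, measured 199 and 127, then 98.8 on the isocaloric array, and 257 and 228 after fetal alcohol (0.78 ± 0.28), with 0.56 in a second and brighter probe set. The alcohol-free arrays of Nefl spread over a wide band, and its highest came near the lower fetal alcohol value.

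Probe sets of 1 gene disagreed for some of the other higher genes. Kctd13, an adaptor of a cullin ubiquitin ligase, gave 0.82 ± 0.25 in a dim probe set and -0.26 and -0.11 in brighter ones. Adgrl2, the adhesion receptor latrophilin 2, gave 0.82 ± 0.26 in 1 probe set and 0.093 and -0.0032 in the others. Mfsd12, a lysosomal transporter, ranged from -0.16 to 0.62 over 4 probe sets. Pfkp, a phosphofructokinase of glycolysis, gave like values in both probe sets (0.72 ± 0.27 and 0.62). The remaining ranked genes were Nfkb1, a subunit of NF-kappa-B (0.74 ± 0.24), Hspa5, the endoplasmic reticulum chaperone BiP (0.65 ± 0.23), Ivns1abp (0.83 ± 0.29) and Chrna3, a nicotinic receptor subunit (0.60 ± 0.22). The brighter Hspa5 probe set gave 0.28 with overlap, its isocaloric value of 619 lying over 451 and 596 after fetal alcohol.

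**Figure D3:**
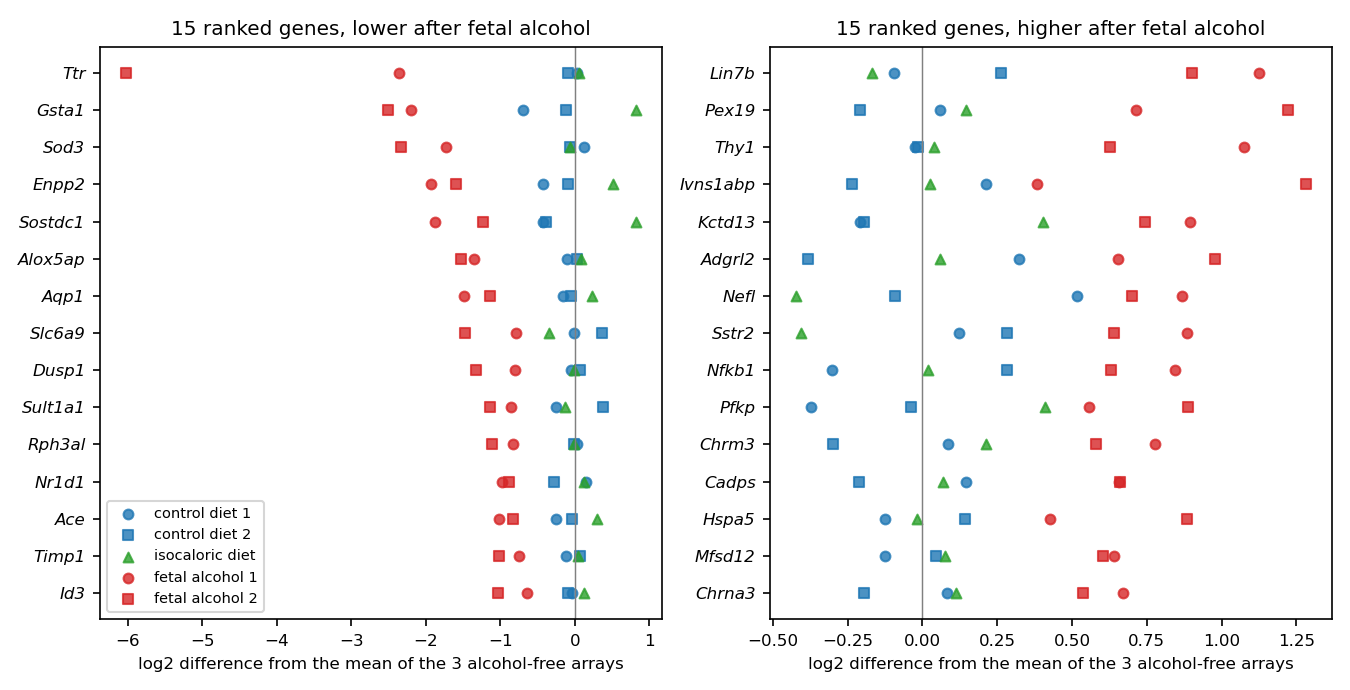
Values on each array of the 15 lower (left) and 15 higher (right) ranked genes, as log2 differences from the mean of the 3 alcohol-free arrays. The red points of the fetal alcohol arrays lie outside the blue and green points in every gene shown, as the ranking rule required, and Ttr shows the widest gap between the red points.

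Promoter sequences of the ranked genes came from RefSeq (assembly GRCr8), matched by symbol for 11 of the 15 lower and 13 of the 15 higher genes. The 250 bases before each start were searched on both strands for TGACGTCA, the cyclic AMP response element that CREB binds, and for TATAAA, the TATA box. The first stood in 1 lower gene, Dusp1, and 1 higher gene, Sstr2, and in 1.59% of 33469 rat promoters. The second stood in 3 lower genes (Gsta1, Aqp1 and Ace) and 2 higher ones (Lin7b and Adgrl2), and in 12.9% of all promoters. It lay at -176 to -171 from the start in Gsta1 and at -143 to -138 in Lin7b. In Ace (-42 to -37) and Adgrl2 (-30 to -25) it was on the reverse strand. The last 150 bases before the start, on the plus strand, are given for 1 gene with the TATA box and for both genes with the response element, which differed in opposite directions. Capitals mark the match, and the genes were chosen after their values were seen. The match lies at -30 to -25 from the start in Aqp1 (chr4:85812634-85812783), at -124 to -117 in Dusp1 (chr10:17184703-17184852) and at -73 to -66 in Sstr2 (chr10:99163203-99163352). A match is a run of letters and not a shown binding site.
Aqp1: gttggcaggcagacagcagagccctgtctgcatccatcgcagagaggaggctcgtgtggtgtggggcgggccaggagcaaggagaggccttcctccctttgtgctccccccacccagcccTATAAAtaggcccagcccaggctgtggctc
Dusp1: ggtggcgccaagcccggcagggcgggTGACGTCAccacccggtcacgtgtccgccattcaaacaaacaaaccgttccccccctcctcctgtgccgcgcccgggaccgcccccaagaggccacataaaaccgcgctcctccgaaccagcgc
Sstr2: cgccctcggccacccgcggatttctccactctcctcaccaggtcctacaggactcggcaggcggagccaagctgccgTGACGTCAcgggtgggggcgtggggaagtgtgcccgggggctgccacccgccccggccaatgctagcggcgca

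Medians of neuronal lists were small and of either sign. Growth cone and axon growth genes had a median of -0.060 over 24 genes, which ran from -0.12 without fetal alcohol array 2 to 0.058 without array 1. Synaptic vesicle genes had one of -0.057 over 31, which was -0.20 without fetal alcohol array 2, -0.13 without the isocaloric array and 0.036 without control diet array 1. Of 23 potassium and HCN channel genes, 4 lay above the range (17.4%, 8.7% over all genes) and 0 below (8.48% over all genes). Of the 23, 5 were negative, and the median was 0.16. With no brightness filter, 5 of 38 lay above and 4 below, 16 were negative, and the median was 0.083. The 4 were Kcns3, a silent voltage-gated subunit (0.38 ± 0.21), Kcnj4, an inward rectifier (0.38 ± 0.22; 0.23 in its second probe set), Kcng1 (0.21 ± 0.20) and Kcnma1, the large-conductance calcium-activated channel (0.20 ± 0.21; -0.22 in its second probe set). Kcnc2, a fast delayed rectifier, had the largest difference at 0.47 ± 0.28 and Kcnmb1, a subunit of the calcium-activated channel, the lowest at -0.44 ± 0.26, both with overlap. In the kinase C, calcium and calmodulin list 7 of 39 lay above the range (17.9%, 8.7% over all genes). Below it lay 2 (5.13%, 8.48% over all genes), and the median was 0.12. Camkk2, the kinase that activates CaM kinases (0.48 ± 0.24), S100b (0.46 ± 0.25) and Atp2b2, a plasma membrane calcium pump (0.46 ± 0.22; 0.20 to 0.38 in its others), were the largest of these 7. The list median was 0.060 without fetal alcohol array 2, 0.076 without the isocaloric array and 0.23 without control diet array 1.

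Receptors for monoamines, acetylcholine and opioids split, with 5 of 28 above the range (17.9%) and 3 below (10.7%). Over all genes 8.7% lay above and 8.48% below. Above were Chrm3, Chrna3, Chrna7, a nicotinic subunit (0.50 ± 0.20; -0.090 in its second probe set), Chrm2, a muscarinic receptor (0.34 ± 0.22), and the serotonin receptor Htr5a (0.27 ± 0.22). Other acetylcholine receptors overlapped, with Chrm5 at -0.11, Chrm1 at -0.11, Chrna4 at 0.045, Chrm4 at 0.15 and Chrnb4 at 0.19. Below were Htr2c, the adrenergic receptor Adra2c (-0.32 ± 0.22) and the dopamine receptor Drd3 (-0.20 ± 0.21). Markers of hippocampal excitatory neurons, 9 tested of 20, had a median of 0.12, with 2 above the range (22.2%) and 0 below. Nrgn measured 1536 and 1546 under control diet, 1474 under isocaloric diet, and 2161 and 1719.6 after fetal alcohol (0.34 ± 0.19; 0.55 in its second probe set). Neurod2, a differentiation factor of these neurons, measured 185 and 150.4, then 88.0 on the isocaloric array, and 83.8 and 110.1 after fetal alcohol (-0.45 ± 0.30), with overlap. The list median turned to -0.18 without fetal alcohol array 2 and to -0.016 without the isocaloric array, and was near 0 without the brightness filter (-0.0016).

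Chaperones of the cytosol and endoplasmic reticulum had the largest positive median, 0.20, with 17 of 23 positive, yet 0 lay above the range and 2 below it, Dnajb1 (-0.22 ± 0.21) and Hsp90ab1 (-0.12 ± 0.16; -0.047 to 0.21 in its others). Without the isocaloric array 8 of 24 lay above and 3 below. Of all 5244 probe sets, 874 then lay above and 931 below, against 443 and 435 with all arrays. Canx, the membrane chaperone calnexin, measured 414 and 464 under control diet, 300.4 under isocaloric diet, and 289 and 979 after fetal alcohol (0.46 ± 0.43). That difference was -0.41 without fetal alcohol array 2 and 1.32 without array 1, and its other probe sets gave 0.0022 to 0.34. Hspa4 (0.54 ± 0.29) was likewise high only on array 2, at 302 against 159 on array 1 and 130.0 to 176 without alcohol. The list median was 0.048 without fetal alcohol array 2 and 0.078 without control diet array 1.

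Ribosomal protein genes of the cytosol had a median of -0.17, with 8 of 36 below the range (22.2%), 0 above it and 28 negative. Over all genes 8.48% lay below, 8.7% above and 48% were negative. Rpl18 measured 1641 and 2172 under control diet, 2197 under isocaloric diet, and 1420.0 and 1438 after fetal alcohol (-0.47 ± 0.20). Rpl24 (-0.41 ± 0.18), Rpl30 (-0.48 ± 0.24) and Rpl19 (-0.35 ± 0.18) also lay below the range. These 4 genes were highest on the isocaloric array. Without that array the list median was -0.061, and with quantile normalization it was -0.088.

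Progenitor and neurogenesis genes had a median of -0.16 over 19 genes, with 4 below the range (21.1%) and 0 above. Over all genes 8.48% lay below and 8.7% above. Beside Id3, Dll1, a Notch ligand of progenitors, measured 119 and 139.6 under control diet, 141 under isocaloric diet, and 63.9 and 95.9 after fetal alcohol (-0.69 ± 0.23). Its second probe set overlapped and gave -0.0046. The median was -0.062 with fetal alcohol array 1 left out and -0.24 with array 2 left out. In the cell cycle list 4 of 20 genes lay above the range (20%) and 2 below it (10%), against 8.7% and 8.48% over all genes. Above were Pcna, the clamp of DNA polymerase (0.45 ± 0.25; -0.0041 in its second probe set), the mitotic kinase Cdk1 (0.42 ± 0.23), Top2a (0.26 ± 0.21) and Ccne1 (0.15 ± 0.20; 0.032 in its second probe set). Below were the inhibitors Cdkn1a (-0.62 ± 0.25) and Cdkn1c (-0.20 ± 0.21). The list median was 0.012, which was -0.035 without fetal alcohol array 2, -0.037 without the isocaloric array, 0.16 without fetal alcohol array 1 and 0.13 without control diet array 2.

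Astrocyte and radial glia genes had 2 of 16 below the range (12.5%) and 1 above (6.25%), against 8.48% and 8.7% over all genes. Their median of -0.13 was -0.054 without fetal alcohol array 1, -0.053 without the isocaloric array and 0.018 without fetal alcohol array 2. Clu, the secreted chaperone clusterin, measured 936 and 1209.7 under control diet, 1043 under isocaloric diet, and 833 and 551 after fetal alcohol (-0.63 ± 0.24). Glul, glutamine synthetase, gave -0.28 ± 0.18 in its brightest probe set, which lay below the range, and -0.29, -0.40 and -0.96 in its others. The last measured 658 and 739 under control diet, 856 under isocaloric diet, and 287 and 496 after fetal alcohol. S100b, a calcium-binding protein of astrocytes, measured 321 and 341, then 217 on the isocaloric array, and 357 and 446 after fetal alcohol (0.46 ± 0.25). Its values thus ran opposite to those of Clu and Glul. The summed intensity of the list ran from 17213 to 18031 without alcohol and was 17938 and 14574 after fetal alcohol. Of 9 oligodendrocyte and myelin genes 0 lay outside the range, and Mbp, myelin basic protein, gave 0.25 ± 0.26.

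Retinoid genes, for synthesis, transport and response to retinoic acid, had a median of -0.16. Of 9 tested, 2 lay below the range (22.2%), against 8.48% over all genes. Ttr was 1, and Crabp2, which carries retinoic acid to its nuclear receptor, the other: 87.5 and 83.5 under control diet, 90.3 under isocaloric diet, and 61.7 and 54.7 after fetal alcohol (-0.51 ± 0.20). Aldh1a2, the main enzyme of retinoic acid synthesis in the embryo, measured 85.2 and 131, then 72.5 on the isocaloric array, and 75.1 and 37.7 after fetal alcohol (-0.69 ± 0.31), with overlap. The median was -0.32 without the isocaloric array, -0.26 with fetal alcohol array 1 left out and -0.27 with array 2 left out. Genes that oxidise alcohols and aldehydes had 2 of 13 below the range (15.4%) and 1 above (7.69%), against 8.48% and 8.7% over all genes. Their median of -0.13 was -0.19 without control diet array 2 and -0.0028 without fetal alcohol array 2. Sord, sorbitol dehydrogenase, lay below the range (-0.53 ± 0.22).

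Corticosteroid and stress signalling genes had 2 of 10 above the range (20%) and 2 below (20%), against 8.7% and 8.48% over all genes. Their differences ran from -1.06 to 0.29. Their median of -0.13 was 0.022 with equal medians, 0.0020 with quantile normalization and 0.053 without fetal alcohol array 1. It was -0.26 with a filter at the 60th percentile, -0.0094 without control diet array 1, -0.076 without control diet array 2, -0.023 without fetal alcohol array 2 and -0.0067 without the isocaloric array. Hsd11b1, which regenerates active glucocorticoid, measured 393 and 346 under control diet, 381 under isocaloric diet, and 234 and 316 after fetal alcohol (-0.44 ± 0.22). Dusp1, given above, was the other gene of this list below the range. The glucocorticoid receptor Nr3c1 had 3 probe sets, 0 of them bright enough to be tested.

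**Figure D4:**
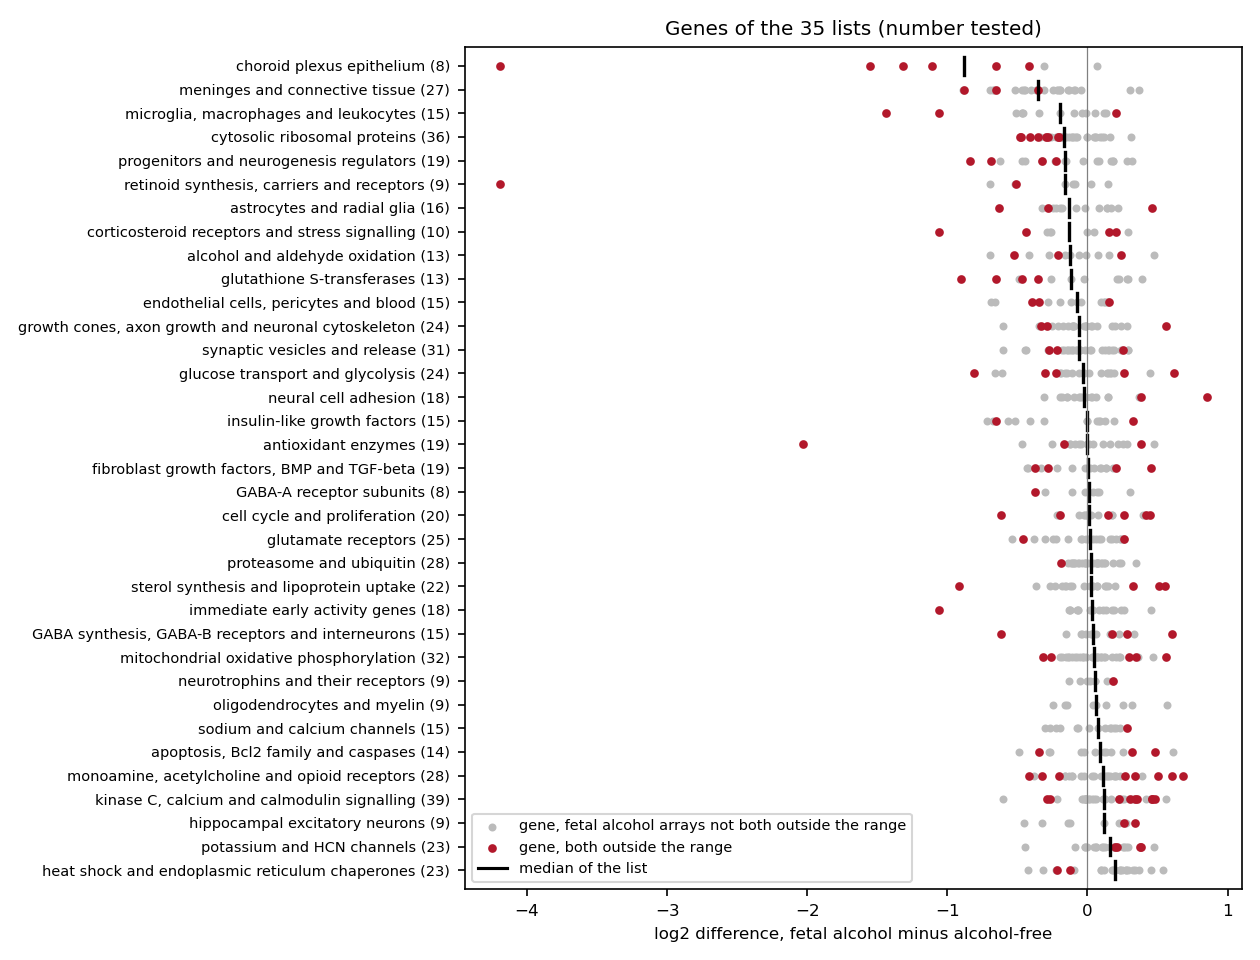
Log2 differences, fetal alcohol minus alcohol-free, of the tested genes of 35 lists, 1 point per gene and a black bar at each list median. Red points are genes with both fetal alcohol arrays outside the range; the choroid plexus list sits lowest with a median of -0.88, and the chaperone list highest with 0.20.

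Genes often examined in fetal alcohol models mostly overlapped between the groups in their brightest probe set. Gap43, a growth cone protein, measured 3029 and 2563 under control diet, 2699 under isocaloric diet, and 2568 and 3069 after fetal alcohol (0.026 ± 0.18). L1cam, an adhesion molecule of axons, gave 0.030 ± 0.21, the neurotrophin Bdnf -0.13 ± 0.23, its receptor Ntrk2 0.14 ± 0.25, and the RNA-binding protein Elavl4 0.18 ± 0.21. Among glutamate receptor subunits, Grin1 gave 0.037 ± 0.28 and Gria2 0.081 ± 0.24, whereas Grin2b measured 105 and 126, then 138 on the isocaloric array, and 146 and 150 after fetal alcohol (0.26 ± 0.21), above the range. The GABA-synthesising enzyme Gad1 gave -0.042 ± 0.24, the neuropeptide Npy 0.041 ± 0.21 and the immediate early gene Fos 0.083 ± 0.35. A second Fos probe set lay below the range: 61.5 and 56.5 under control diet, 46.1 under isocaloric diet, and 25.3 and 40.2 after fetal alcohol (-0.61). Second probe sets gave 0.16 for Bdnf, 0.099 for Elavl4 and -0.035 for Gria2, and the other 3 of Grin1 gave 0.027 to 0.26. The SE of these genes ran from 0.18 to 0.35, which is the precision that 5 arrays gave. Of 25 glutamate receptor genes, 1 lay above and 1 below the range. Without the isocaloric array 8 of 25 lay below, where 931 of all 5244 probe sets did. The lists given only by counts or not named had medians from -0.12, for glutathione S-transferases, to 0.12, for kinase C, calcium and calmodulin signalling.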

How the data were processed

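Total RNA of rat hippocampus was measured on 5 single-colour arrays. The deposited values are intensities, linear, 1 per probe set and array; how the authors scaled them is not given in the sources used here. Trimmed means (2%) agreed within a ratio of 1.0002, so columns were used as deposited. Intensities became log2(intensity + 10.605), the offset being the 20th percentile, which understates differences of dim probe sets. Probe sets under the 40th percentile of mean log2 were not tested. That mean covered all arrays, so a dim probe set could pass through the group where it was high. The means of 2 fetal alcohol and 3 alcohol-free arrays were fitted in limma 3.58.1 (R 4.3.3; eBayes with trend, 2-sided; Benjamini-Hochberg, threshold 0.05; 3 residual and 6.39 prior degrees of freedom). The fit was tried on 5 simulated data sets with 200 changed probe sets, in which all arrays of a probe set had the same spread. It called 100% of log2 changes of size 2 and 69.3% of those of size 1, and 6.7% of its calls were false. The fetal alcohol arrays, the pair farthest apart, may not meet that setting. The diets' difference lies inside the spread.

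Symbols came from the platform annotation, updated by gene identifier for 6985 probe sets; 7006 had 1 symbol, 308 several and 1426 none, and only the first were named. The text names up to 15 higher and 15 lower genes: first those past the threshold, then those outside the range and at least 1.5-fold apart, by smallest p; a list of prior genes, of which Gfap had 0 probe sets with 1 symbol; and the leading members of the 12 lists with the largest medians. Members named from other lists were chosen after their values were seen. Lists (35) use the brightest probe set per gene (3174 genes). Of these genes 8.48% lay below the range, 8.7% above it and 48% were negative, the shares to set beside the counts of each list. Members and lists were chosen with earlier results of these data known, so no list was tested. Scan dates were not used here.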

Additional observations from a re-analysis of the deposited data

How the results depend on the processing

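Beside the 0 probe sets past the threshold, 1 passed with each diet given its own mean, 6 with equal medians and 0 to 3 when 1 array was left out (3 without fetal alcohol array 1, both Ttr probe sets and Sod3; 2 without array 2, both Ttr). The adjusted p ranged from 0.00912 to 0.464 for Sod3 and from 8.33e-06 to 0.927 for Ttr. Of 36 probe sets above the range by at least 1.5-fold, 2 were 2-fold; there were 22 with a filter at the 60th percentile, 90 with none, 15 with the offset at the 40th percentile and 53 to 247 with 1 array left out. The 101 below numbered 23, 49, 155, 60 and 100 to 450 in that order. The 443 above the range became 275 and 903 with the stricter and no filter and 683 to 1489 with 1 array left out, and the 435 below 264, 683 and 651 to 1500; with fewer arrays, fewer values have to keep this order. The corticosteroid median was 0.022 (equal medians), 0.0020 (quantile), -0.26 (60th percentile) and -0.076 to 0.053 with 1 array left out. Leaving out 1 array also turned the sign of Canx (-0.41 to 1.32), Col3a1 (-1.86 to 0.083), Fos (-0.28 to 0.35), Gad1 (-0.37 to 0.29), Gap43 (-0.10 to 0.15), Gria2 (-0.051 to 0.23), Grin1 (-0.21 to 0.23), Igf1 (-0.033 to 0.17), L1cam (-0.076 to 0.14), Npy (-0.070 to 0.15) and Ntrk2 (-0.18 to 0.46), and of the medians of glutathione S-transferases (-0.37 to 0.12), neural cell adhesion (-0.052 to 0.18) and sodium and calcium channels (-0.057 to 0.22). In all, the medians of 19 of the 35 lists turned sign when some array was left out, GABA-A receptor subunits among them (0.011, and -0.23 without fetal alcohol array 2). The cause of these shifts was not tested. Precision is limited by the small number of arrays.

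Replicate numbers are only names in the labels, and their 1 correlation of deviations, -0.113, cannot show a pairing. With the replicate block, which leaves out the isocaloric array, 6 probe sets passed (Ttr with both, Sod3, Igf2, Atn1 and Sec31a); with the numbers crossed, added after seeing the data, 20 passed. Under the block 78 and 207 probe sets lay above and below the range by at least 1.5-fold, 874 and 931 by any amount, the corticosteroid median was -0.0067, and Fos (-0.28), Gria2 (-0.051) and L1cam (-0.042) turned sign.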

Other observations

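Some probe sets separated both control diet arrays from the isocaloric array and the fetal alcohol arrays alike; they are named after their values were seen. Atn1, the transcriptional corepressor atrophin 1, measured 129 and 88.7 under control diet, 25.5 under isocaloric diet, and 21.2 and 27.9 after fetal alcohol (-1.18 ± 0.48; -0.42 in its second probe set). Sec31a, part of the COPII coat, measured 171 and 109, then 24.4 on the isocaloric array, and 28.7 and 27.4 after fetal alcohol (-1.24 ± 0.56; 0.13 and -0.15 in its others). With a single isocaloric array there is no replicate check of that value.

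Single genes of lists described only by counts also lay outside the range. Srebf1, a master regulator of lipid synthesis, gave -0.92 ± 0.33, while the sterol enzymes Dhcr7 (0.55 ± 0.30) and Msmo1 (0.32 ± 0.21) and the lipoprotein receptor Scarb1 (0.51 ± 0.25; 0.23 and -0.57 in its others) lay above; the median of the 22 genes was 0.027. Slc6a11, a GABA transporter of astrocytes, gave -0.62 ± 0.25, and Tac1, the precursor of substance P, 0.60 ± 0.27.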
